A study of Homo sapiens with 4 samples.

Results

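The genes described here are the miRNA genes of the imprinted DLK1-DIO3 domain on human chromosome 14, chosen by gene symbol from a list of 51, and all 51 were among the 26485 genes of the deposited small RNA table. HCT116 is an established line from a human colon carcinoma, and every library was made from its Drosha k.o. cells, which lack the nuclease that starts miRNA processing in the nucleus, so both groups carried the knockout. The control cells had received the empty lentiviral vector pLenti-GIII-CMV-RFP-2A-Puro, and the other cells the same vector carrying CD95L, the ligand of the death receptor CD95, driven by the CMV promoter. For HCT116 cells the study's methods name a CD95L mutant that cannot bind its receptor and carries an early stop codon. Both groups were kept in 3 µg/mL puromycin for 2 days per the labels, total RNA was harvested at the 50 h time point, and there were 2 libraries per group, called vector 1, vector 2, CD95L 1 and CD95L 2 here. The procedure was done in duplicate, but the step at which the duplicates parted is not given, and p-values then measure only how far these libraries spread, which may be technical. The titles of both vector libraries bear a mark (# 2) that those of the CD95L libraries lack, and a batch in that place cannot be told apart from the treatment.

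In the DLK1-DIO3 domain the protein coding genes DLK1, RTL1 and DIO3 are expressed from the paternal chromosome, whereas the noncoding RNAs MEG3, MEG8 and MEG9, the SNORD113 and SNORD114 snoRNAs and the miRNAs are expressed from the maternal one. The miRNA hairpins lie in long maternal transcripts, from which Drosha cuts them before Dicer releases the mature strands. These miRNAs are known from embryo, placenta, brain and muscle and are commonly silent in adult epithelium. Without Drosha, hairpins of this kind are not expected to be released, and mature miRNAs guide Argonaute proteins to mRNAs mainly through the seed, bases 2 to 8 of the strand.

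All 51 hairpins lay on the plus strand within 214 kb (hg38, chromosome 14). A first group of 9 ran from MIR770 to MIR136, MIR370 lay alone, and 41 lay within 44.7 kb from MIR379 to MIR656. The 6 members with a mean of at least 1 CPM (reads per 1000000 reads counted to genes) all belonged to the last group. They are shown first because the values below turn on them, each with both mature strands, 5′ to 3′ (RefSeq, GRCh38.p14), with the seed in capitals. The table counted reads per gene, so which strand a read came from is not known.
hsa-miR-411-5p: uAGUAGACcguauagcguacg
hsa-miR-411-3p: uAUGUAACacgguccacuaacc
hsa-miR-381-5p: aGCGAGGUugcccuuuguauau
hsa-miR-381-3p: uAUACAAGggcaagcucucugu
hsa-miR-410-5p: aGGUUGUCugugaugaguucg
hsa-miR-410-3p: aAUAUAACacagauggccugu
hsa-miR-409-5p: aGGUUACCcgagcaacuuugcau
hsa-miR-409-3p: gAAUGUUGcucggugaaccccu
hsa-miR-889-5p: aAUGGCUGuccguaguaugguc
hsa-miR-889-3p: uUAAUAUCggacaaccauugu
hsa-miR-655-5p: aGAGGUUAuccguguuauguuc
hsa-miR-655-3p: aUAAUACAugguuaaccucuuu

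The libraries held 22488145 to 25163566 reads counted to genes, and 3 reads correspond to 0.119 to 0.133 CPM, the limit that a count of 0 allows in a library. Intervals and limits cover counting error only, since copies of a molecule made by PCR cannot be told apart. FASLG, the gene of CD95L, had 1.16 CPM in vector 1 and 2.94 CPM in vector 2 but 94.9 CPM in CD95L 1 and 90.5 CPM in CD95L 2, in the direction of the labels. Fragments of the DROSHA mRNA were seen at 10.1 to 13.6 CPM in all 4 libraries. The position of these fragments was not analysed, so they do not check the knockout.

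The DLK1-DIO3 miRNAs were rare in every library and reached their highest level in vector 1. Together they had 60.6 CPM (1510 reads) in vector 1, 10.5 CPM (264 reads) in vector 2, 2.62 CPM (60 reads) in CD95L 1 and 3.82 CPM (86 reads) in CD95L 2. The groups did not overlap, but the vector libraries differed 5.78-fold from each other. The vector mean was 35.5 ± 35.4 CPM and the CD95L mean 3.22 ± 0.851 CPM (SD, n = 2), an 11.0-fold ratio that fell to 3.26-fold when vector 1 was left out. As a share of all miRNA reads, the members took 0.173% in vector 1 (exact 95% interval 0.164 to 0.182%) and 0.0346% in vector 2 (0.0306 to 0.0390%). They took 0.00893% (0.00681 to 0.0115%) in CD95L 1 and 0.0127% (0.0101 to 0.0156%) in CD95L 2. Of the 51 genes, 35 had a read in vector 1 and 27 in vector 2, against 8 in CD95L 1 and 11 in CD95L 2.

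**Figure D1:**
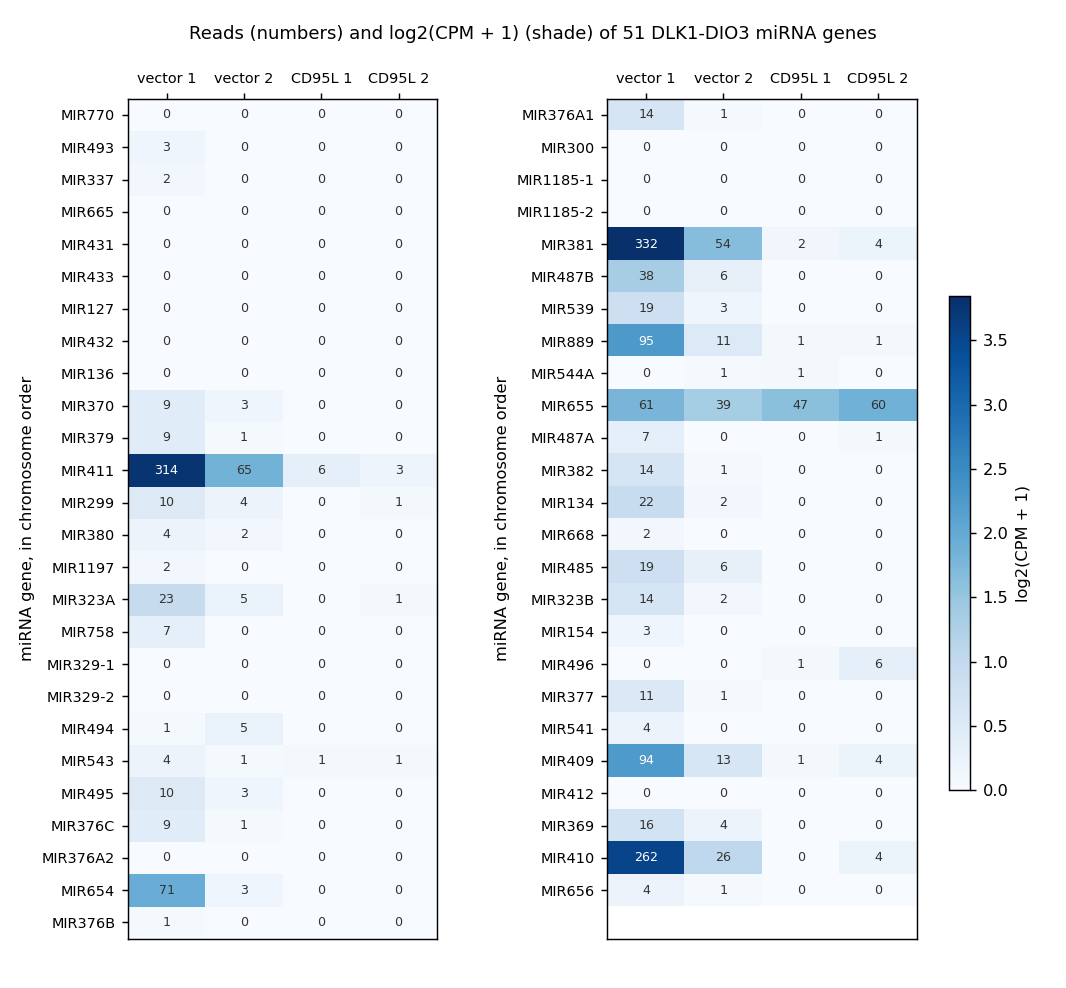
Reads (numbers) and log2(CPM + 1) (shade) of each of the 51 miRNA genes (rows, in chromosome order over 2 panels) in each library (columns). Reads concentrate in MIR411, MIR381 and MIR410 in vector 1 and to a lower degree in vector 2, while MIR655 has 39 to 61 reads in every library.

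MIR411, MIR381 and MIR410 carried most of the members' reads in the vector libraries. They made up 60.1% of these reads in vector 1 (exact 95% interval 57.6 to 62.6%) and 54.9% in vector 2 (48.7 to 61.0%), but 13.3% in CD95L 1 (5.94 to 24.6%) and 12.8% in CD95L 2 (6.56 to 21.7%). The latter shares rested on 8 and 11 reads.

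**Figure D2:**
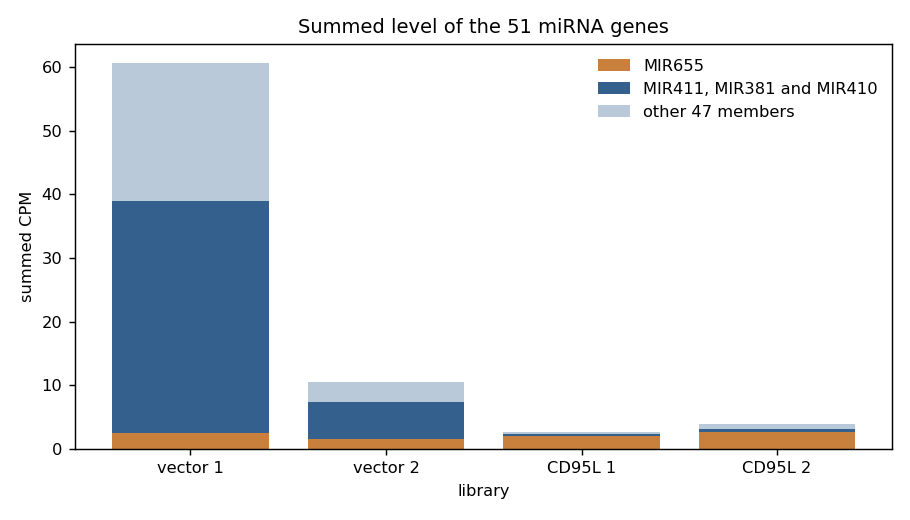
Summed CPM (vertical axis) of the 51 miRNA genes in each library (bars), split into MIR655, the sum of MIR411, MIR381 and MIR410, and the remaining 47 genes. The bars reach 60.6, 10.5, 2.62 and 3.82 CPM, and MIR655 is the largest portion only in the CD95L libraries.

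MIR411 (chromosome 14, 101023325 to 101023420), a close neighbour of MIR379, lay inside a RefSeq noncoding gene (LOC124903407) and overlapped no exon of another gene in GENCODE 44. It had 12.6 CPM in vector 1, 2.58 CPM in vector 2, 0.262 CPM in CD95L 1 and 0.133 CPM in CD95L 2. Both CD95L libraries, with 6 and 3 reads, lay below both vector libraries. Over the pooled reads the vector level was 38.2-fold that of CD95L (95% counting interval 19.9 to 84.1). Against vector 2 alone it was 13.0-fold (6.46 to 29.8). The difference of CD95L minus vector was -2.55 ± 0.47 (SE) on the log2(CPM + 1) scale and did not pass the threshold (limma, adjusted p = 0.242).

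MIR381 (101045920 to 101045994) and MIR410 (101065912 to 101065991) also had both vector libraries above both CD95L libraries, with vector 1 highest. MIR381 lies within its RefSeq host gene MIR381HG, a long noncoding RNA, and MIR410 overlapped no other RefSeq gene. MIR381 had 13.3 CPM in vector 1, 2.15 CPM in vector 2, 0.0873 CPM in CD95L 1 and 0.178 CPM in CD95L 2, the CD95L libraries resting on 2 and 4 reads. Its pooled vector level was 58.3-fold that of CD95L (counting interval 26.5 to 160), or 16.2-fold (6.99 to 46.2) with vector 2 alone. The difference was -2.57 ± 0.52 (SE) on the log2(CPM + 1) scale (limma, adjusted p = 0.353). MIR410 had 10.5 CPM in vector 1, 1.03 CPM in vector 2, no read in CD95L 1 and 0.178 CPM (4 reads) in CD95L 2. Its pooled ratio was 65.3-fold (25.2 to 241), or 11.7-fold (4.07 to 46.2) with vector 2 alone, and the difference was -2.16 ± 0.58 (SE) on the log2(CPM + 1) scale (limma, adjusted p = 0.724).

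MIR409 (101065300 to 101065378), less than 1 kb upstream of MIR410, and MIR889 (101047901 to 101047979), inside MIR381HG, were lower in abundance and had the same order of groups. MIR409 had 3.77 CPM in vector 1, 0.517 CPM in vector 2, 0.0437 CPM in CD95L 1 and 0.178 CPM in CD95L 2. MIR889 had 3.81, 0.437, 0.0437 and 0.0445 CPM in the same order, the CD95L values being a single read each. Neither gene overlapped between the groups. The pooled vector level was 19.4-fold that of CD95L for MIR409 (counting interval 8.06 to 60.9) and 48.0-fold for MIR889 (13.0 to 402). With vector 2 alone it was 4.69-fold for MIR409 (1.57 to 16.8) and 9.92-fold for MIR889 (2.16 to 92.1), on 13 and 11 vector reads. The differences on the log2(CPM + 1) scale were -1.28 ± 0.42 (SE) for MIR409 and -1.33 ± 0.44 (SE) for MIR889 (limma, adjusted p = 0.833 and 0.824).

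MIR655 stood apart from its neighbours. It lies in MIR381HG less than 2 kb downstream of MIR889 (101049550 to 101049646), and its miRNA is known to repress ZEB1 and TGFBR2, genes of the epithelial to mesenchymal transition. It had 2.45 CPM in vector 1, 1.55 CPM in vector 2, 2.05 CPM in CD95L 1 and 2.67 CPM in CD95L 2, with overlapping groups. The ratio of pooled vector to CD95L reads was 0.847 (counting interval 0.638 to 1.12), and the difference was 0.17 ± 0.26 (SE) on the log2(CPM + 1) scale (limma, adjusted p = 0.965). Without vector 2 its sign turned (-0.043). As the other members were so rare in CD95L cells, MIR655 alone made up 78.3% of the members' reads in CD95L 1 (exact 95% interval 65.8 to 87.9%) and 69.8% in CD95L 2 (58.9 to 79.2%), against 4.04% in vector 1 (3.10 to 5.16%) and 14.8% in vector 2 (10.7 to 19.6%). Without MIR655 the members summed to 58.2 and 8.94 CPM in the vector libraries and to 0.568 and 1.16 CPM in the CD95L libraries. The ratio of the means was then 38.9-fold, and 10.4-fold without vector 1. Of the 18-base windows of the MIR655 hairpin, 78.8% occurred at a single place in hg38, against 70.5% for MIR539 and 100% for MIR409. The part of reads shared with other places in the count of MIR655 was not tested.

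**Figure D3:**
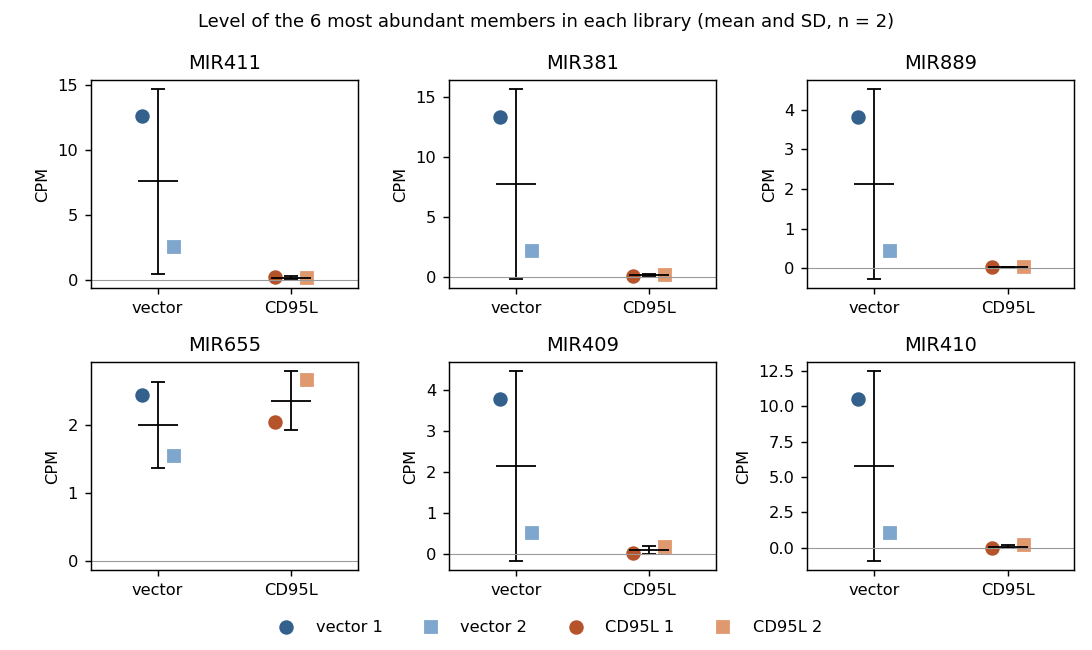
Level in CPM (vertical axis, linear, from the deposited values) of the 6 members with a mean of at least 1 CPM in each library, with the group mean and SD (n = 2) as lines. MIR411, MIR381, MIR410, MIR409 and MIR889 are highest in vector 1 and near 0 in both CD95L libraries, whereas MIR655 has 1.55 to 2.67 CPM in all 4.

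Per length of hairpin, the order of mean levels in vector was MIR381 (103 CPM per kb), MIR411 (79.1 CPM per kb), MIR410 (72.2 CPM per kb), MIR409 (27.1 CPM per kb), MIR889 (26.9 CPM per kb) and MIR655 (20.6 CPM per kb). The SD of each gene but MIR655 was close to or above its mean, as for MIR381 (105 CPM per kb). This spread lies between libraries and does not compare genes within a library. MIR410 had more reads than MIR409 in both vector libraries (262 and 26 against 94 and 13), with hairpins of 80 and 79 bases. The last place of MIR655 rested on vector 1. In vector 2, MIR655 (1.55 CPM) lay above MIR410 (1.03 CPM), MIR409 (0.517 CPM) and MIR889 (0.437 CPM). In CD95L cells MIR655 came first, with 24.3 ± 4.49 CPM per kb (SD, n = 2), beyond the spread of the next gene, MIR411 (2.06 ± 0.948 CPM per kb). MIR381 (1.77 CPM per kb), MIR409 (1.40 CPM per kb), MIR410 (1.11 CPM per kb) and MIR889 (0.558 CPM per kb) followed, and neighbours from MIR411 on did not differ beyond the spread of the CD95L libraries.

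Whether the members passed a test depended on how the reads were tested. Only 6 of the 51 had the mean of at least 1 CPM that limma required, and MIR411, MIR381, MIR410, MIR409 and MIR889 reached it through the vector libraries alone, so the direction of their differences carries no support of its own. With limma none of the 6 was called in either direction, and over all 16127 genes 0% were called lower and 0.0062% higher. At an unadjusted p below 0.05, 5 of the 6 members were lower, against 2.52% of the genes tested. In the same 5 both CD95L libraries lay below both vector libraries, against 19% of the genes tested. edgeR on reads recovered from the CPM values, with a minimum of 10 reads over the 4 libraries, tested 22 members and called 6 of them lower and none higher, beside 0.344% of 22658 genes called lower and 0.0353% called higher. The 21 tested members other than MIR655 likewise reached this minimum only with their vector reads. The 6 called were MIR381 (adjusted p = 2.28e-06), MIR411 (2.36e-06), MIR410 (5.86e-05), MIR889 (0.00375), MIR409 (0.0151) and MIR654 (0.0157). The edgeR count fell to 2 members, MIR411 and MIR381, without vector 1 and also without CD95L 2, to 0 without CD95L 1, and was 7 without vector 2. With DESeq2 on the recovered reads 4 of the 6 members with a mean of at least 1 CPM were called lower. Over all genes with that mean, DESeq2 called 30 lower and 7 higher. MIR410 (DESeq2, adjusted p = 0.647) and MIR655 (0.999) did not pass. As the 4 called reached the filter only through the vector libraries, their count is a description.

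The other 45 members had means below 1 CPM, and 31 of them had at least 1 read. MIR654, in the segment of the miR-376 genes, was the most abundant of these, with 71 reads (2.85 CPM) in vector 1, 3 reads (0.119 CPM) in vector 2 and none in the CD95L libraries. Against the limit of 3 reads over both CD95L libraries (0.0661 CPM) its pooled vector level was at least 22.4-fold higher, a bound that takes the vector reads without counting error and rests on vector 1. MIR487B had 38 and 6 reads in the vector libraries and none in CD95L cells, at least 13.3-fold higher by the same limit, or at least 3.61-fold with vector 2 alone, and did not pass with edgeR (adjusted p = 0.0890). MIR134, known from rodent neurons for its control of dendritic spine size, had 22 and 2 reads against none. MIR323A had 23, 5, 0 and 1 reads and MIR485 had 19, 6, 0 and 0 reads in the order vector 1, vector 2, CD95L 1 and CD95L 2. None of these but MIR654 passed the test with edgeR.

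The same order of libraries recurred in the members as far as reads allowed. Of the 37 members with reads, 33 were highest in vector 1 and 25 had no read in either CD95L library. The shares of all genes with these traits were not computed, so both counts are a description. Of the 22 with at least 10 reads, 21 were highest in vector 1 and had both vector libraries above both CD95L libraries, and the exception was MIR655. Among all 22658 genes with as many reads, 10.8% had that order, and 11.8% of those with a mean of at least 1 CPM. At that mean, 100 of 345 other miRNAs and 7 of 11 SNORD113 and SNORD114 genes had it, beside 5 of 6 members. As the 21 members reached 10 reads only through the vector libraries, their count is a description. The remaining members outside this order had few reads. MIR494 had 1 read in vector 1 and 5 in vector 2, and MIR544A had 1 read in vector 2 and 1 in CD95L 1. MIR496 was the only member with reads in CD95L cells alone, with 1 read in CD95L 1 and 6 reads (0.267 CPM) in CD95L 2.

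The spread between the vector libraries was itself a common feature of the members. Among the 13 members with at least 20 reads over both vector libraries, the ratio of vector 1 to vector 2 was above 1 in all. It was lowest for MIR655 (1.58, exact 95% counting interval 1.04 to 2.43). In the other 12 it ranged from 3.20 (MIR485) to 23.9 (MIR654), with a median of 6.40, and the interval held the ratio of the summed reads (6.50) in 9 of them. The interval lay above that value for MIR654 (7.85 to 119) and MIR410 (10.2, interval 6.79 to 15.9), and just below it for MIR411 (4.88, interval 3.72 to 6.48). Members that share 1 long transcript and 1 library are not independent of each other. Among 481 other miRNAs with as many reads and a read in vector 2, the median ratio was 1.23, with quartiles of 0.922 and 2.56. Other miRNAs without a read in vector 2 have no such ratio and were left out.

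**Figure D4:**
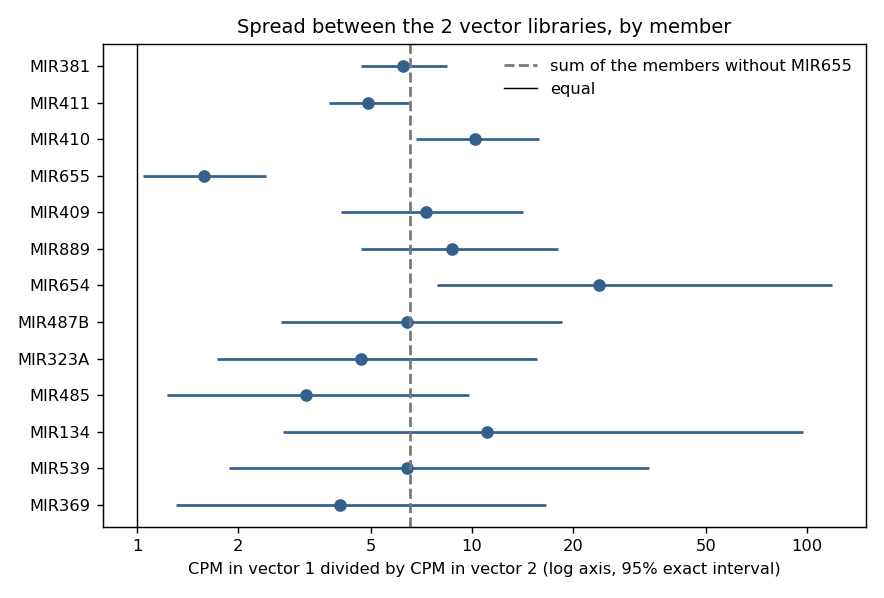
CPM in vector 1 divided by CPM in vector 2 (horizontal log axis) for the 13 members with at least 20 vector reads, ordered by mean level, with exact 95% counting intervals as lines. The dashed line marks the ratio of the summed reads without MIR655 (6.50); the points lie between 3.20 and 23.9 except MIR655 at 1.58.

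A further 14 members had no read in any library. They were MIR770, MIR665, MIR431, MIR433, MIR127, MIR432, MIR136, MIR329-1, MIR329-2, MIR376A2, MIR300, MIR1185-1, MIR1185-2 and MIR412. MIR431, MIR433, MIR127, MIR432 and MIR136 all lie antisense to the RTL1 exon, and in mouse miRNAs antisense to this gene are known to cleave its mRNA. RTL1 itself had 24 to 39 reads per library. MIR770 overlapped an exon of MEG3 and MIR1185-1 an exon of MEG9 (GENCODE 44). MIR329-1 and MIR329-2, MIR1185-1 and MIR1185-2, and MIR376A2 with MIR376A1 share an identical mature strand. In all, 11 of the 14 genes at 0 overlapped an exon of another gene in the table or shared a mature strand with another gene, against 7 of the 37 with reads. By HTSeq's usual rules reads that fit several genes or places are not counted, the strand setting was not given in the sources used here, and the part of these rules in the 14 values of 0 was not tested. These genes are therefore listed at 0, which does not show that their miRNAs were absent.

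Seeds were shared within the domain, and copies with the same seed had very different counts. The 94 mature strands held 79 distinct seeds, of which 13 were shared by at least 2 members. The pairs below are shown because in each a member with many reads shares its seed (capitals) with a member with few or none. The strand of MIR381 matched that of MIR300 at 19 of 22 bases, and MIR300 had no read while MIR381 had 392 over the 4 libraries. The strand of MIR411 matched that of MIR379 at 20 of 22 bases, and MIR379 had 10 reads while MIR411 had 388.
hsa-miR-381-3p: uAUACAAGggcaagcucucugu
hsa-miR-300: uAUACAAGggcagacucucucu
hsa-miR-411-3p: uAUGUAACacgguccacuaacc
hsa-miR-379-3p: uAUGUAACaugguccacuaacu

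MIR410, MIR494 and MIR323B shared the seed of their 5p strands (GGUUGUC). The summed level of these genes was 11.1 and 1.31 CPM in the vector libraries and 0 and 0.178 CPM in the CD95L libraries, nearly all of it from MIR410. The miR-376 genes are known for A-to-I editing of their seeds. The strands of miR-376a-3p and miR-376b-3p shared the seed UCAUAGA, and their genes MIR376A1, MIR376A2 and MIR376B summed to 0.602 and 0.0397 CPM in the vector libraries, with no read in the CD95L libraries. Since reads were counted per gene, these sums describe the genes and not the strands that hold the seed.

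The summed level of the snoRNAs of the same maternal transcripts was also highest in vector 1. The 40 SNORD113 and SNORD114 genes, C/D box RNAs without a known target, summed to 195 and 28.9 CPM in the vector libraries and to 18.6 and 17.3 CPM in the CD95L libraries, a ratio of vector 1 to vector 2 of 6.75 beside 5.78 for the 51 miRNA genes. SNORD114-12 alone had 2218 of the 4855 reads in vector 1 and 208 of the 726 in vector 2, and without it the sums were 106 and 20.6 CPM in vector and 17.3 and 15.9 CPM in CD95L libraries. Single snoRNA genes with at least 20 vector reads had ratios of vector 1 to vector 2 from 0.685 to 84.8. The median difference of the 11 snoRNA genes tested with limma, -1.31 on the log2(CPM + 1) scale, became -0.25 without vector 1. SNORD113-8 had 33.4 and 3.14 CPM in vector and 0.306 and 0.711 CPM in CD95L libraries. Of the 22 snoRNA genes tested with edgeR 6 were called lower, as were 6 of the 22 miRNAs, beside 0.344% of all genes. Among the 6 snoRNA genes called, SNORD113-5 and SNORD114-1 reached the minimum of 10 reads only with their vector reads. SNORD114-3, also called, had 10.6 CPM in vector 1 and 0.954 CPM in vector 2, against 0.830 and 0.845 CPM in CD95L libraries. Its call therefore rests on vector 1.

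Fragments of the long RNAs and mRNAs of the domain did not have this order as a sum. The 9 such genes in the table summed to 574 reads in vector 1, 325 reads (12.9 CPM) in vector 2, 400 reads (17.5 CPM) in CD95L 1 and 420 reads (18.7 CPM) in CD95L 2, with overlapping groups. SNORD112, a snoRNA kept on the same list, had 24 reads in vector 1, 6 in vector 2 and none in the CD95L libraries. MEG3, the maternal noncoding RNA at the head of the cluster, had 4.25, 2.19, 4.59 and 3.20 CPM in the order vector 1, vector 2, CD95L 1 and CD95L 2. DIO3, the thyroid hormone deiodinase at the far end, had 4.29, 3.14, 2.97 and 4.54 CPM, and BEGAIN, outside DLK1, had 10.2, 4.53, 5.37 and 4.58 CPM. MIR381HG, the host of MIR381, MIR889 and MIR655, had no read in the vector libraries and 4 and 0 reads in the CD95L libraries. Of these 10 genes, SNORD112 included, limma tested 6 and edgeR 9, and neither called any in either direction.

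The remaining miRNAs of the genome are given for comparison. The 1828 other miRNA genes summed to 35049 and 30302 CPM in vector and to 29352 and 30223 CPM in CD95L libraries. The median difference of the 345 tested was -0.18 on the log2(CPM + 1) scale and that of all 16127 genes was -0.01, while that of the 6 members tested was -1.74. The members' value cannot be read against the others, since 5 of the 6 passed the filter only where they were high. With edgeR 44 of 612 other miRNAs were called lower, among 78 of all 22658 genes tested (0.344%). Lower calls were thus not particular to the members among miRNAs. The miR-320 family and miR-484, which are made without Drosha, were held by MIR320A, at 13087 and 11984 CPM in vector and 12920 and 12695 CPM in CD95L libraries. Of the 6 of its 9 genes tested with limma and the 7 tested with edgeR none was called.

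Fragments of the mRNAs that encode the miRNA processing machinery were measured in all 4 libraries and none passed. DGCR8, the partner of Drosha, had 16.0, 13.8, 11.2 and 11.6 CPM, and DICER1, which cuts the hairpin further, had 14.2, 11.1, 9.52 and 10.8 CPM, in the order vector 1, vector 2, CD95L 1 and CD95L 2. AGO2, the Argonaute that cleaves targets, had 42.7, 36.6, 40.2 and 32.6 CPM. Of the 10 genes of this list limma had a positive difference for 4 and a negative one for 6, and edgeR called none.

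Markers of some other cell types had their highest sum in vector 1, as had the miRNA markers of colon epithelium. The nerve cell markers had not. The 12 colon epithelial markers summed to 151 and 131 CPM in vector and to 117 and 112 CPM in CD95L libraries, and none was at 0 in all 4. The 6 protein coding genes among them, mainly KRT8 and KRT18, had 3145 and 3140 reads in vector against 2612 and 2455 in CD95L libraries. The 6 miRNA genes among them had the order of the members as a sum, with 24.3 and 5.88 CPM against 3.23 and 2.49 CPM. Among these genes only MIR192 had that order by itself, with 21.6 and 5.84 CPM against 2.66 and 2.22 CPM. MIR141, MIR215 and MIR200C were highest in vector 1 but had a CD95L library above vector 2. MIR194-1 and MIR194-2 had reads in vector 1 alone. MIR126, the only endothelial marker, had 35.0 and 6.48 CPM in vector and 1.48 and 0.711 CPM in CD95L libraries. Of 5 markers of fibroblasts and smooth muscle 4 had no read and MIR145 had 2.21 and 0.238 against 0.262 and 0.0445 CPM. The 3 leukocyte markers summed to 3.01 and 1.03 against 0.830 and 0.623 CPM, and the 4 endocrine markers to 1.40 and 0.0397 against 0 and 0.133 CPM. All 5 markers of striated muscle, the liver marker MIR122 and all MIR124 genes of nerve cells had no read. As for the members at 0, such values do not show that the marker miRNAs were absent. The 6 nerve cell markers together reached at most 0.119 CPM and the 7 markers of pluripotent and trophoblast cells at most 0.120 CPM. The part of other cells, or of RNA from them, in the level of the DLK1-DIO3 miRNAs in vector 1 was not tested, and fewer cells that make these miRNAs cannot be told apart from less of them per cell.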

How the data were processed

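Total RNA of HCT116 Drosha k.o. cells was made into 4 small RNA libraries. The authors trimmed reads with TrimGalore, aligned them to hg38 with TopHat (Bowtie2 is also named in the submitters' notes) and counted them per gene with HTSeq. Their versions, the annotation and the strand setting are not given in the sources used here. Deposited values were CPM, each library summing to 1000000. The authors also deposited 4 columns of their own comparison (average and fold change on the log2 scale, p-value and adjusted p-value), which were not used.

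All CPM values were whole multiples of 1 read within 0.01 of a read, so reads were recovered. The test was limma 3.58.1 (R 4.3.3) on log2(CPM + 1), which understates the change of low genes, for 16127 genes whose mean reached 1 CPM. Group was the only term, p-values were two-sided, and Benjamini-Hochberg adjustment ran over all genes with a threshold of 0.05. Alternatives on the recovered reads were the quasi-likelihood test of edgeR 4.0.16 with TMM factors, and DESeq2 1.42.0. The edgeR test with a minimum of 10 reads, its repeats without each library, and sums without MIR655 or over miRNA reads were chosen after the data had been seen. Repeats without a library, with limma or edgeR, kept the genes that had passed the filter with all libraries. Members that passed through vector 1 thus stayed in the repeats without it. Differences are CD95L minus vector. Ratios of reads have exact 95% binomial intervals (scipy 1.17.1), given for at least 20 reads and, with vector 2 alone, for every member with a mean of at least 1 CPM. Tests were tried on simulated data.

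Every member with a mean of at least 1 CPM was named with its 4 values. Members and lists were chosen with earlier results of these data known. Other members, and other genes of the lists, named as examples were chosen after their values were seen. Positions and sequences came from RefSeq (GRCh38.p14) and exons from GENCODE 44, matched by symbol. All 51 members had a position and mature strand and 47 a hairpin sequence. Windows of 18 bases were searched on both strands.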

Additional observations from a re-analysis of the deposited data

How the results depend on the processing

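Of the 6 members tested 0 were called lower with limma, a count that stayed at 0 with a pseudocount of 0.1 and with no filter. It was 2 (MIR411 and MIR381) with TMM factors, DESeq2 size factors or a mean-variance trend, 5 with edgeR and 4 with DESeq2 on recovered reads, and 0 to 5 without each library in turn (5 without vector replicate 2). None was called higher in any setting. The median difference of the members (-1.74) was -3.83 with a pseudocount of 0.1, -0.29 over the 37 members kept with no filter, -5.28 with edgeR, -5.37 with DESeq2 on recovered reads, and -0.68 to -2.81 without each library in turn. The log2 ratio of the summed CPM (-3.46) was -5.28 without MIR655 and -1.70 to -4.23 without each library in turn. With edgeR and a minimum of 10 reads the 6 members called lower became 0 to 7. The difference of MIR655 (0.17) was -0.043 to 0.39 without each library in turn, and turned to -0.043 without vector replicate 2. Over all genes limma called 1 higher and 0 lower. These were 0 and 0 with a pseudocount of 0.1 or no filter, 1 and 27 with TMM factors, 1 and 30 with DESeq2 size factors, 1 and 28 with a mean-variance trend, 8 and 64 with edgeR, 7 and 30 with DESeq2 on recovered reads, and 1 to 4 and 5 to 76 without each library in turn. The cause of these shifts was not tested.

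Libraries with the same replicate number in their titles had no common shift (correlation of the deviations of vector 1 and CD95L 1 from their group means -0.002 over 16127 genes). Whether these libraries were handled together cannot be read from this value. With a replicate block limma called 5 members lower and 0 higher, and 9 higher and 71 lower of all genes. Counts of 0 to 6 reads in CD95L libraries limit every ratio given for a member other than MIR655.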
